A study of Solanum lycopersicum with 12 samples.

Results

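Leaves of tomato plants that had received ultrasound alone were compared with leaves of untreated plants, across all the genes whose counts passed a filter on low values. Of the 34075 genes in the count table, 22157 passed, and 6 of the 12 libraries of the series entered the comparison. All the plants were of the dwarf cultivar Micro Tom, grown in peat cylinders in a climate chamber at 24 °C with a day of 16 h, and 3 weeks old when the stimuli were given. The control plants (C) were not treated. The ultrasound plants (US) stood 6 cm from the head of an ultrasonicator that worked through the air at 30 kHz and 120 W for 5 min. The other 6 libraries, used below only where this is said, came from plants irrigated with 10 ml of a solution of 20% polyethylene glycol (PEG) to impose drought (D), without or with the same ultrasound immediately before it (US + D). Leaves of all 4 groups were taken 48 h after the stimuli, and each group had 3 libraries of poly-A RNA, described as biological replicates. The sources used here do not say whether a library held 1 plant or several. Nothing in the design applied the handling of the ultrasonication without the sound, so that sound and handling cannot be told apart.

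Ultrasound reaches a leaf as a rapid vibration, i.e., as a mechanical stimulus. Plants perceive mechanical load at the cell wall and the plasma membrane, where receptor-like kinases and cation channels lie at the start of the known pathways, and calcium, ethylene, jasmonate and auxin carry the signal onwards. Genes that are known to answer touch or vibration in other plants include those of wall-loosening enzymes, calcium sensors and transcription factors of the ethylene response. Most of these answers are known to last minutes to hours, while the leaves here were taken after 48 h.

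The total count per library was 44837873 to 106829565 in C and 36766633 to 42940503 in US, and 2 C libraries (replicates 2 and 3) were far deeper than any US library. Counts were scaled to a common library total (CPM), with library sizes corrected by the TMM method, and a count of 0 allows up to 3 counts, or 0.0274 to 0.0847 CPM in these 6 libraries, a limit that covers counting error only. In bulk leaf RNA, fewer cells of a type and less RNA per cell cannot be told apart. Gene names were taken from the study's supplementary tables and covered 1360 genes, mostly ones that the study had picked from these libraries. The lists of genes below are therefore partial, and their counts are not independent evidence of a direction. Of the 22157 tested genes, 1223 had a name, 1111 of them listed among the study's DEGs. Of the genes called below by DESeq2, 1 up- and 0 down-regulated genes had no name. A named gene was thus called more often than a tested gene at large. Shares of all tested genes are therefore not a baseline for a list of named genes. Rubisco or antenna genes were not among the named genes, so that the leaf label was not checked by its defining markers. The 8 named photosystem genes, 3 of them without counts throughout and 2 past the filter, together reached 6.11 to 18.2 CPM in C, against 5.65 to 14.7 in US. Nearly all of this came from 1 gene, Solyc01g008510.3.1, with 14.7, 17.6 and 5.93 CPM in C and 14.05, 13.3 and 4.38 CPM in US.

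With edgeR's quasi-likelihood test on all 12 libraries, 0 genes were DEGs between US and C when a Benjamini-Hochberg adjusted p under 0.05 was required together with a log2 fold change beyond 0.58 in size. The share of genes called was thus 0%, and the smallest adjusted p was 0.197. At an unadjusted p under 0.05, edgeR gave 850 genes (3.84%), 522 with more and 328 with fewer counts in US. DESeq2, the tool named in the study's methods, gave 77 DEGs at the same thresholds, 57 up-regulated (0.269% of the genes with an adjusted p) and 20 down-regulated (0.0945%), and limma voom gave 1. From here on, a gene is called up- or down-regulated only where DESeq2 called it, and none of these calls held in edgeR. Their edgeR adjusted p lay between 0.197 and 0.776 for the up-regulated genes and between 0.197 and 0.95 for the down-regulated genes, and each had an unadjusted edgeR p under 0.05.

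**Figure D1:**
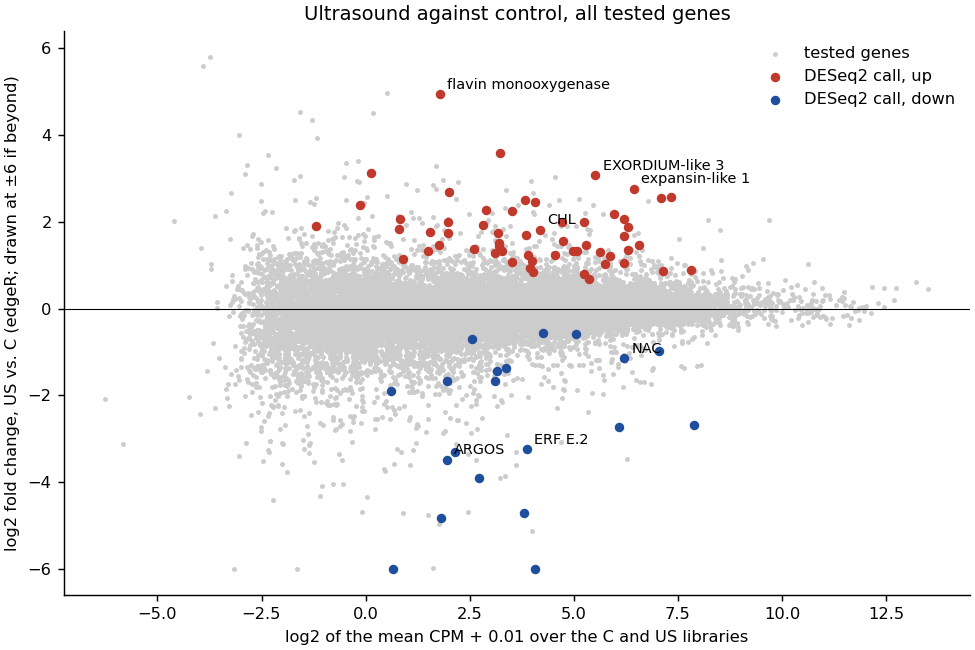
The edgeR log2 fold change of US against C (vertical axis) is drawn against the log2 of the mean CPM over the 6 libraries (horizontal axis, 0.01 added) for the 22157 tested genes (grey), with the 57 up- (red) and 20 down-regulated genes (blue) of DESeq2. The called genes lie at the upper and lower edges of the cloud, among uncalled genes with changes of like size.

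The up-regulated genes had a median log2 fold change of 1.66 in DESeq2 (range 0.68 to 4.92), and in all 57 of them the 3 US libraries lay above the 3 C libraries. The same held for 3.61% of all tested genes. In 17 of the 20 down-regulated genes, the US libraries lay below the C libraries, as in 2.65% of all tested genes. US replicate 3 was the highest of the US libraries in 41 of the 57 up-regulated genes (71.9%), beside 35.4% of all tested genes. Without this library, DESeq2 kept 29 of the 77 calls (19 up and 10 down). C replicate 3 was the lowest of the C libraries in 12 of the 20 down-regulated genes (37.1% of all tested genes), and under 10% of the mean of the other C libraries in 5 of them. Without C replicate 3, 67 of the calls were kept, while 36 were kept without C replicate 2. When DESeq2 was run 6 times, each time omitting a different library of C or US, 23 genes stayed DEGs throughout (17 up and 6 down).

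**Figure D2:**
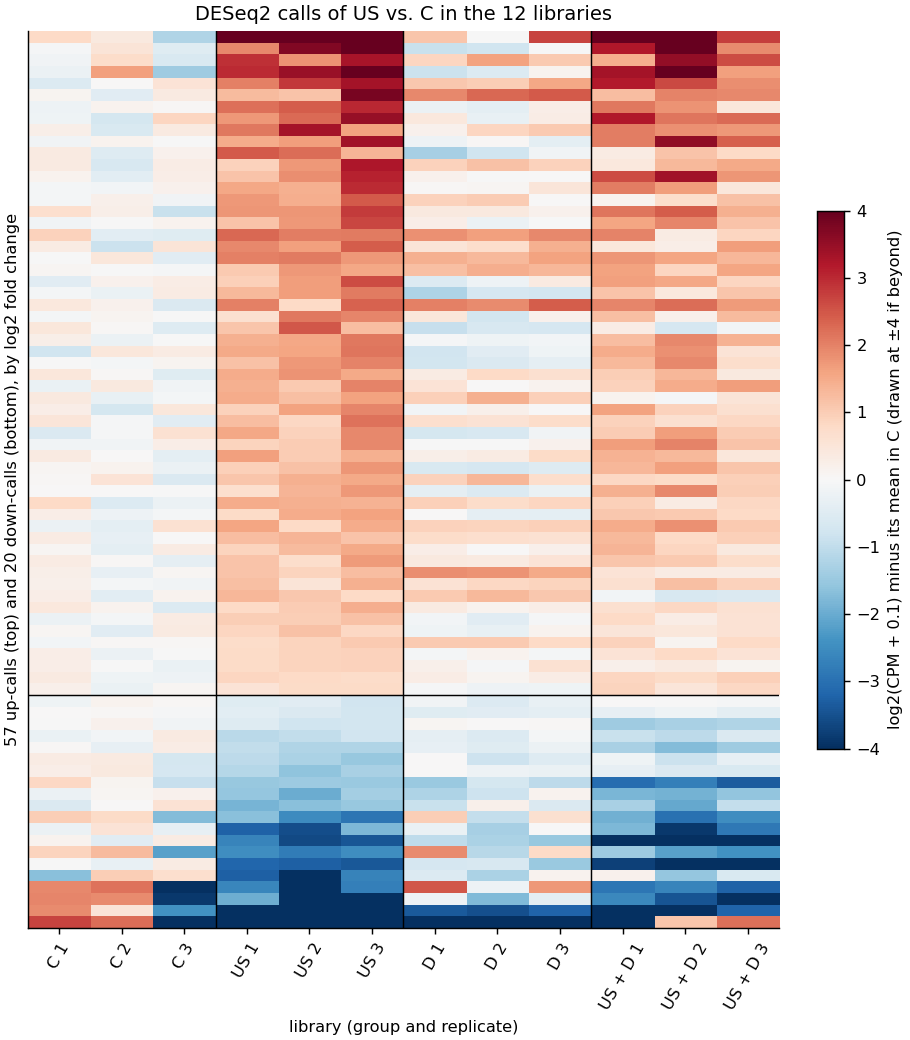
Each row is a DESeq2 call of US against C, up-regulated at the top and down-regulated at the bottom, and each column a library. The colour gives log2(CPM + 0.1) minus its mean in C. US replicate 3 holds many of the deepest red cells, C replicate 3 is blue among several of the strongest falls, and the US + D columns, which are not part of this contrast, are mostly of the same colour as the US columns.

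The fall with the smallest DESeq2 adjusted p was that of ethylene responsive factor E.2 (ERF E.2), a transcription factor of the ethylene response (Solyc09g089930.3.1, chromosome 9, 65643193 to 65643915, + strand). It had 28.1, 18.8 and 32.1 CPM in C and 4.04, 2.03 and 2.29 CPM in US, so that every US library was far below every C library. The mean fell from 26.4 ± 6.84 to 2.79 ± 1.096 CPM (SD, n = 3), or 9.46-fold. Its difference on the log2 scale amounted to -3.24 ± 0.44 (standard error, edgeR adjusted p = 0.197), and over the alternatives of both tools the adjusted p ranged from 8.5e-19 to 0.692. It was the 1 gene that voom called. ARGOS, named after an auxin-regulated gene that enlarges organs in Arabidopsis (Solyc12g096570.1.1, chromosome 12, 64948133 to 64948489, - strand), had 6.803, 5.5998 and 8.72 CPM in C and 0.685, 0.636 and 0.565 CPM in US. The US libraries were close to each other, and the mean was 11.2-fold lower than in C. Its log2 fold change of -3.48 had a standard error of 0.63 and an edgeR adjusted p of 0.32, with a range from 1.6e-18 to 1 over the alternatives. Both genes stayed down-regulated in all 6 leave-one-out fits of DESeq2.

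EXORDIUM-like 3, of a family of extracellular proteins tied to growth in Arabidopsis (Solyc10g074540.1.1, chromosome 10, 57114676 to 57115710, - strand), had 5.72, 21.1 and 2.44 CPM in C and 53.04, 73.8 and 119 CPM in US. All US libraries lay above the C libraries, but C replicate 2 had several times the level of the other C libraries. Its difference on the log2 scale amounted to 3.07 ± 0.80 (standard error, edgeR adjusted p = 0.745), the adjusted p ranged from 8.4e-08 to 1, and the DESeq2 call was lost without C replicate 1, US replicate 2 or US replicate 3. CHL, a chlorophyllase, which cuts the phytol tail from chlorophyll (Solyc09g065620.3.1, chromosome 9, 59880955 to 59882889, + strand), had 10.5, 8.68 and 5.17 CPM in C and 31.9, 13.5 and 40.2 CPM in US. US replicate 2 came close to the highest C library, while the other US libraries stood well above it. Its log2 fold change of 1.82 had a standard error of 0.38 and an edgeR adjusted p of 0.482, the adjusted p ranged from 4.1e-06 to 1, and the call was lost without US replicate 1 or US replicate 3.

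**Figure D3:**
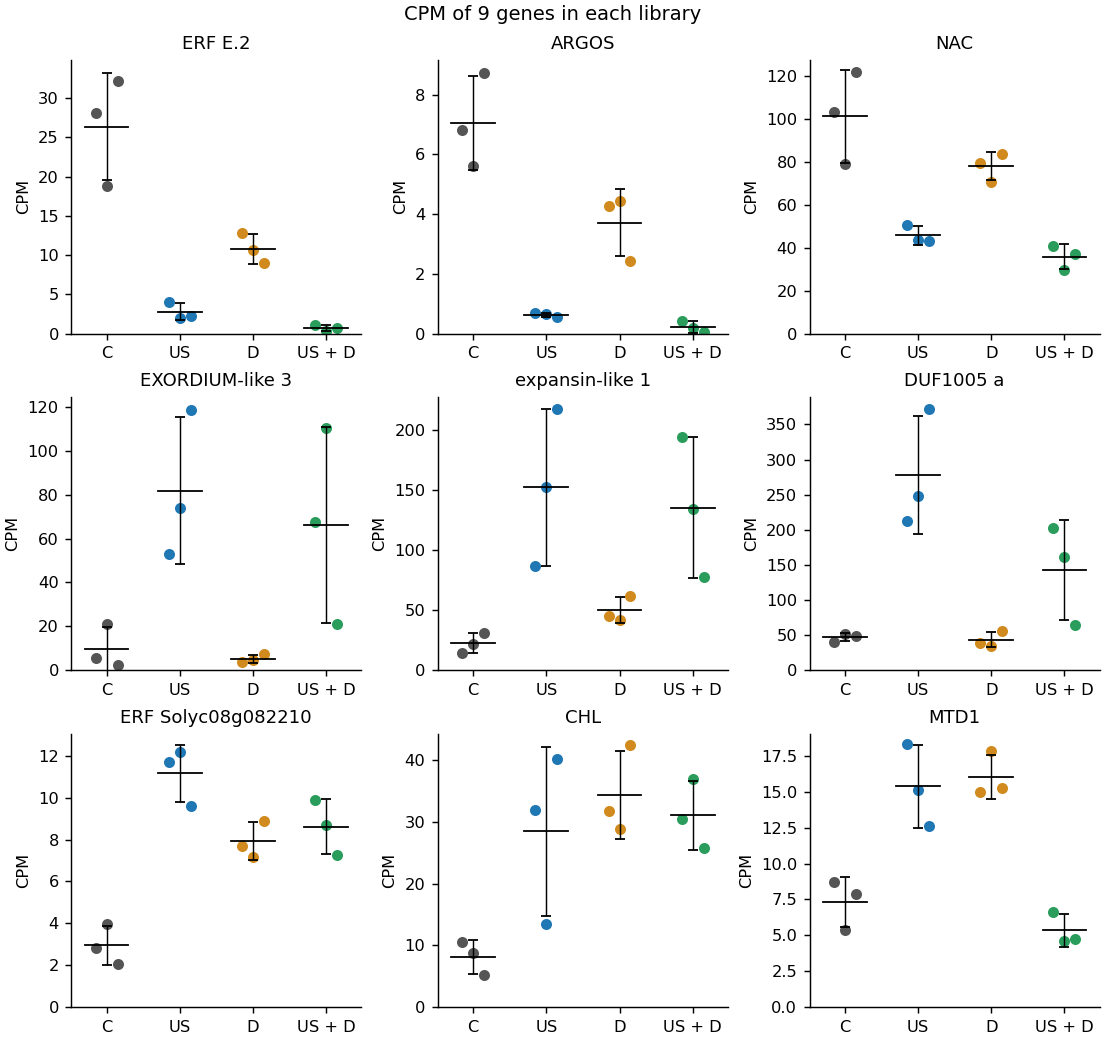
CPM of 9 genes (vertical axes, starting at 0) in each library of C, US, D and US + D; points are libraries, horizontal lines means and error bars SD (n = 3, cut off at 0). ERF E.2, ARGOS and the NAC gene are low in both groups that received ultrasound. EXORDIUM-like 3, expansin-like 1 and the DUF1005 gene Solyc01g106690.3.1 (DUF1005 a) are high in both. In D, ERF E.2 and ARGOS also lie below C, while expansin-like 1, the gene ERF Solyc08g082210 and CHL lie above C. MTD1 is high in US and D and low in US + D.

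Genes of the cell wall and of wall growth included some of the largest rises. The expansin-like protein precursor 1, a relative of the wall-loosening expansins (Solyc01g112000.4.1, chromosome 1, 90487762 to 90489626, + strand), had 14.6, 21.5 and 31.002 CPM in C and 86.7, 153 and 217 CPM in US, a 6.81-fold higher mean in US. Its difference on the log2 scale amounted to 2.77 ± 0.43 (standard error, edgeR adjusted p = 0.218), the adjusted p ranged from 3.4e-08 to 1, and it was up-regulated in all 6 leave-one-out fits. The other named expansins were not called, and the median log2 fold change of the 3 genes in the list was -1.16. Beta-expansin Solyc01g090810.4.1 had 0.128, 1.64 and 1.22 CPM in C and 0.320, 0.236 and 0.0847 CPM in US, with overlapping libraries (log2 fold change -2.21). Expansin 1 (Solyc06g051800.3.1) had 4.72, 3.69 and 7.48 CPM in C and 2.01, 2.59 and 2.49 CPM in US (log2 fold change -1.16, DESeq2 adjusted p = 0.172), i.e., its US libraries lay below its C libraries. Of 7 named xyloglucan endotransglucosylase/hydrolases (XTH), which cut and rejoin the xyloglucan chains between cellulose fibres, 1 was up-regulated (all genes 0.269%). This gene, ETAG-A3 (Solyc04g008210.2.1, chromosome 4, 1924806 to 1927226, + strand), had 41.6, 30.5 and 13.96 CPM in C and 88.6, 88.2 and 181 CPM in US, a log2 fold change of 2.06 (standard error 0.42, DESeq2 adjusted p = 0.002), and it lost its call without US replicate 3. In the list, 4 genes had an unadjusted edgeR p under 0.05 with more counts in US and 1 with fewer, beside 2.36% and 1.48% of all tested genes. Its median log2 fold change of 2.06 rested on US replicate 3 and was 0.10 without it. In Solyc12g011023.1.1, for example, the values were 0.0425, 1.47 and 0.237 CPM in C and 0.754, 0.519 and 16.2 CPM in US, i.e., 1 library stood apart.

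EXORDIUM-like 1 (Solyc04g074410.2.1) had 9.06, 68.1 and 22.6 CPM in C and 70.2, 116 and 369 CPM in US, with a log2 fold change of 2.48 that did not pass (DESeq2 adjusted p = 0.312), and US replicate 3 was again the highest. The cellulose synthases, which spin the cellulose chains at the plasma membrane, had 108, 143 and 128 CPM in C and 218, 169 and 264 CPM in US in Solyc04g071650.4.1 and 2.55, 8.74 and 9.09 CPM in C and 6.58, 7.54 and 92.3 CPM in US in Solyc03g097050.3.1. Neither was called (DESeq2 adjusted p = 0.52 and 0.401), and the US libraries of the latter overlapped those of C. An OBERON gene, known in Arabidopsis for a part in meristem maintenance, lies directly downstream of ETAG-A3 on the same strand of chromosome 4, 791 bases further on (Solyc04g008220.4.1, 1928018 to 1931555). It was up-regulated as well, with 4.66, 5.73 and 5.08 CPM in C and 14.6, 16.5 and 53.9 CPM in US and a log2 fold change of 2.46 (standard error 0.53). Both genes of the pair had their highest US value in replicate 3, and both lost the call without it.

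Few of the named receptors and signalling proteins were called, in both directions. TMK4, a receptor-like kinase of auxin signalling in Arabidopsis (Solyc12g098570.2.1, chromosome 12, 65566433 to 65570354, - strand), had 17.9, 17.98 and 17.5 CPM in C and 28.4, 46.2 and 59.6 CPM in US and a log2 fold change of 1.33 (standard error 0.28). Its C libraries were nearly equal, and the call was lost without C replicate 1 or 2 or US replicate 2 or 3. A leucine-rich repeat receptor kinase (Solyc01g107670.2.1) had 29.1, 32.6 and 43.8 CPM in C and 69.01, 69.3 and 78.2 CPM in US, with a log2 fold change of 1.04 (standard error 0.19), and stayed up-regulated in all 6. The list of receptor-like kinases held 31 tested genes, of which 2 were up- and 0 down-regulated, beside 0.269% and 0.0945% of all genes with an adjusted p. At an unadjusted edgeR p under 0.05, 7 had more counts in US and 1 fewer (2.36% and 1.48% of all tested genes), and the median log2 fold change was 0.33, beside -0.02 over all tested genes. Nearly all calls were named genes, so these shares are not a baseline for this list. Members related to the wall-sensing kinases of Arabidopsis were among those without a call. THESEUS 1-like Solyc11g072910.1.1 had 13.8, 7.201 and 9.74 CPM in C and 19.1, 17.4 and 17.5 CPM in US (DESeq2 adjusted p = 0.196), and HERK 1-like Solyc05g054860.1.1 had 19.5, 11.1 and 13.02 CPM in C and 19.6, 24.4 and 36.2 CPM in US (DESeq2 adjusted p = 0.29). FERONIA-like Solyc09g015840.4.1 had 6.101, 6.26 and 13.6 CPM in C and 13.8, 13.7 and 15.7 CPM in US (DESeq2 adjusted p = 0.944). In each of these 3 genes the US libraries lay above the C libraries, by little in HERK 1 and FERONIA. The other THESEUS 1-like gene (Solyc10g006870.1.1) had 15.3, 19.4 and 6.26 CPM in C and 20.9, 25.5 and 65.3 CPM in US, with US replicate 3 apart from the rest. The wall-associated kinases did not share the order, with 13.6, 13.6 and 11.9 CPM in C and 9.799, 15.4 and 7.401 CPM in US in Solyc10g076540.1.1 (log2 fold change -0.26) and 7.398, 3.32 and 6.76 CPM in C and 6.49, 7.19 and 6.13 CPM in US in Solyc12g088040.2.1 (log2 fold change 0.18), and overlapping libraries in both.

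Cyclic nucleotide-gated channel 15, of a family of calcium-conducting channels (Solyc09g007840.3.1, chromosome 9, 1393399 to 1396588, - strand), was present at 0.170, 0.393 and 0.0949 CPM in C and 2.15, 0.919 and 2.82 CPM in US, and its log2 fold change was 3.13 (standard error 0.71, DESeq2 adjusted p = 0.00347), a call lost without US replicate 3. The level was low in every library, and the other 3 named channels of the family were not called. An inositol-1,4,5-triphosphate 5-phosphatase, which breaks down a second messenger of calcium release (Solyc08g077210.4.1), had 32.1, 22.1 and 65.04 CPM in C and 121, 174 and 399 CPM in US and a log2 fold change of 2.54 (standard error 0.53), lost only without US replicate 3. Down-regulated were a calcium-dependent protein kinase (Solyc10g079755.1.1), with 142, 160.03 and 220.2 CPM in C and 80.7, 86.7 and 99.5 CPM in US, and MAP kinase kinase kinase 59 (Solyc07g064820.1.1), with 4.95, 6.12 and 6.62 CPM in C and 1.92, 1.39 and 2.23 CPM in US. Their log2 fold changes were -0.97 and -1.68 (standard errors 0.21 and 0.36). The kinase call was lost without US replicate 1 or 2, and that of the MAP kinase kinase kinase lost without C replicate 2 or US replicate 2. The 4 named calmodulin-like and EF-hand genes, a family with touch-induced members in Arabidopsis, held 0 calls. A MOB kinase activator (Solyc07g041730.4.1) had 4.29, 2.88 and 4.67 CPM in C and 8.61, 14.3 and 33.5 CPM in US and was up-regulated by 2.25 on the log2 scale (lost without C replicate 2 or US replicate 3). The gene annotated as serine/threonine-protein kinase TOR (Solyc05g021580.3.1), a hub of nutrient and growth signalling, was up-regulated from a low level, with 0.383, 0.165 and 0.323 CPM in C and 1.99, 1.67 and 0.876 CPM in US (lost without C replicate 2 or US replicate 1 or 2).

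Among the transcription factors, calls were found in both directions. CONSTANS-LIKE 7, of a family that reads day length and light (Solyc05g009310.3.1, chromosome 5, 3490063 to 3492184, + strand), had 4.83, 2.61 and 5.29 CPM in C and 17.7, 41.98 and 12.6 CPM in US. Its log2 fold change of 2.51 had a standard error of 0.45 and an edgeR adjusted p of 0.314, the adjusted p ranged from 4.0e-06 to 1, and it was up-regulated in all 6 leave-one-out fits, with US replicate 2 the highest. A B-box zinc finger gene of the same list (Solyc07g062160.3.1) had 35.4, 24.4 and 24.1 CPM in C and 50.2, 48.1 and 46.2 CPM in US, with little spread in US and a log2 fold change of 0.79 (lost without C replicate 2 or US replicate 1, 2 or 3). Of the 5 named genes of the list, 2 were up- and 0 down-regulated (all genes 0.269% and 0.0945%). The Dof zinc finger gene Solyc06g150130.1.1 had 118, 83.7 and 98.7 CPM in C and 169.6, 185 and 189.6 CPM in US, a change of 0.86 on the log2 scale that was called in all 6 fits, as was Zinc finger protein 8 (Solyc05g009180.1.1), with 0.702, 0.604 and 0.958 CPM in C and 1.99, 2.59 and 3.47 CPM in US (log2 fold change 1.83). Both genes annotated as RADIALIS-like 6, small MYB-type proteins, were up-regulated, with 1.13, 0.732 and 1.36 CPM in C and 2.65, 2.404 and 15.8 CPM in US in Solyc10g052470.1.1 and 3.13, 1.54 and 2.999 CPM in C and 4.71, 8.39 and 23.9 CPM in US in Solyc01g109690.1.1. In both, US replicate 3 had several times the level of the other US libraries. The former call was lost without C replicate 1 or 2 or US replicate 3, and the latter lost without C replicate 2 or US replicate 3.

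On the side of the falls, a NAC domain gene (Solyc11g017470.2.1, chromosome 11, 8518920 to 8520455, - strand) had 103, 78.9 and 122 CPM in C and 50.8, 43.7 and 42.9 CPM in US, a 2.21-fold lower mean. Its difference on the log2 scale amounted to -1.15 ± 0.19 (standard error, edgeR adjusted p = 0.244), the adjusted p ranged from 2.7e-08 to 1, and it was down-regulated in all 6 leave-one-out fits. NAC factors include regulators of leaf senescence and of stress responses. A relative, Solyc06g060230.3.1, had 45.8, 53.5 and 71.3 CPM in C and 36.9, 29.8 and 33.6 CPM in US, also without overlap, but narrowly missed the threshold (log2 fold change -0.77, DESeq2 adjusted p = 0.0509). Of the 5 named NAC genes, 3 had an unadjusted edgeR p under 0.05 with fewer counts in US and 0 with more, beside 1.48% and 2.36% of all tested genes. The NAC genes without such a p, Solyc07g066330.3.1 and Solyc08g006020.4.1, had log2 fold changes of 0.71 and 0.08. The TGA6-like gene, of the bZIP factors that act in salicylic acid responses (Solyc02g073580.1.1, chromosome 2, 39763453 to 39764112, + strand), had 2.93, 18.7 and 15.3 CPM in C and 0.891, 0.189 and 1.41 CPM in US and a log2 fold change of -3.90 (standard error 0.86), called in all 6 fits although its C libraries were far apart. An AT-hook gene (Solyc05g053000.1.1) with 7.08, 8.13 and 6.43 CPM in C and 5.002, 4.05 and 4.27 CPM in US and a zinc finger gene (Solyc06g063280.1.1) with 1.47, 2.31 and 3.39 CPM in C and 0.548, 0.636 and 0.734 CPM in US were down-regulated too. The former was lost without C replicate 1 or 2 or US replicate 2 or 3, and the latter was kept only without C replicate 1. The 2 named WRKY genes, a family of defence regulators, were not called, though WRKY transcription factor 3 (Solyc02g088340.4.1) had 30.8, 23.5 and 24.7 CPM in C and 48.9, 56.4 and 57.5 CPM in US (DESeq2 adjusted p = 0.0537).

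Hormone genes were called in both directions. Among 9 named ethylene response factors, 1 (ERF E.2) was down- and 1 up-regulated (all genes 0.0945% and 0.269%). The latter (Solyc08g082210.4.1, chromosome 8, 63173729 to 63175001, - strand) had 2.81, 3.95 and 2.06 CPM in C and 11.7, 12.2 and 9.604 CPM in US, a 3.7999-fold higher mean. Its log2 fold change of 1.92 had a standard error of 0.26 and an edgeR adjusted p of 0.197, with a range from 2.3e-14 to 1 over the alternatives, and the call was kept in all 6 leave-one-out fits. Of the 9 factors, 2 had an unadjusted edgeR p under 0.05 with more counts in US and 3 with fewer. Over all tested genes these shares were 2.36% and 1.48%. The median log2 fold change of the 9 was -0.86. The ethylene receptors ETR4 (Solyc06g053710.3.1) and ETR5 (Solyc11g006180.2.1), which hold back the ethylene response until they bind the hormone, had 22.6, 20.1 and 25.6 CPM in C and 15.9, 14.8 and 11.6 CPM in US, and 42.2, 30.5 and 39.8 CPM in C and 29.9, 28.5 and 20.4 CPM in US, respectively. Their US libraries lay below those of C, but neither was called (DESeq2 adjusted p = 0.183 and 0.768). Of the auxin genes, a SAUR gene, of a family of early auxin-induced growth genes (Solyc07g042490.1.1), was up-regulated with 3.66, 8.84 and 8.03 CPM in C and 18.5, 19.4 and 28.4 CPM in US (log2 fold change 1.69, lost without C replicate 1 or US replicate 2 or 3), while SAUR20 (Solyc03g033590.1.1) had 12.7, 13.9 and 2.97 CPM in C and 3.11, 2.64 and 4.18 CPM in US and no call. A gibberellin-regulated gene (Solyc04g078195.1.1) was up-regulated with 145, 163 and 164 CPM in C and 259, 294 and 324 CPM in US (log2 fold change 0.89, lost without C replicate 1 or 2 or US replicate 2 or 3). Gibberellin 2-oxidase 2 (Solyc07g056670.3.1), an enzyme that inactivates gibberellin, had 6.74, 5.88 and 2.79 CPM in C and 2.99, 1.27 and 1.67 CPM in US, with overlapping libraries and a DESeq2 adjusted p of 0.124. The largest rise of all the calls was that of a flavin-containing monooxygenase, of a family that includes the YUCCA enzymes of auxin synthesis (Solyc06g083700.4.1, chromosome 6, 46610867 to 46612634, - strand), with 0.383, 0.265 and 0.0190 CPM in C and 5.802, 6.32 and 7.82 CPM in US. Its difference on the log2 scale amounted to 4.95 ± 1.08 (standard error, edgeR adjusted p = 0.482), the adjusted p ranged from 7.4e-07 to 1, and it was kept in all 6 fits.

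In carbohydrate metabolism, a pair of neighbouring SWEET genes, sugar transporters of the plasma membrane, was up-regulated. Solyc06g072620.4.1 and Solyc06g072630.4.1 lie on the + strand of chromosome 6 (42451057 to 42452967 and 42456474 to 42458200), 3506 bases apart, and reads of such near relatives could be split between them. The former had 0.638, 0.796 and 0.598 CPM in C and 2.44, 2.03 and 4.096 CPM in US and the latter 2.34, 1.43 and 1.66 CPM in C and 5.19, 4.24 and 5.59 CPM in US. Their log2 fold changes were 2.07 and 1.47 (standard errors 0.43 and 0.28), the former call was lost without US replicate 3, and the latter was kept in all 6 leave-one-out fits. The third named SWEET gene (Solyc01g099880.4.1) had 4.804, 5.41 and 5.399 CPM in C and 8.25, 3.58 and 3.62 CPM in US and a log2 fold change of -0.02. A trehalose-6-phosphate synthase (Solyc02g072150.3.1), of the enzymes that make a sugar signal, was up-regulated with 56.4, 44.3 and 33.8 CPM in C and 136, 88.01 and 117 CPM in US (log2 fold change 1.34, lost without C replicate 2 or 3 or US replicate 1 or 3). Trehalose-6-phosphate synthase 6 (Solyc10g046770.3.1) had 1.91, 1.88 and 1.79 CPM in C and 1.01, 1.04 and 1.05 CPM in US, lower in every US library (log2 fold change -0.85), and a DESeq2 adjusted p of 0.0534. A beta-amylase, which splits maltose from starch (Solyc01g094580.3.1), was down-regulated from 39.8 ± 1.25 to 26.6 ± 2.81 CPM (SD, n = 3), with 40.2, 40.9 and 38.4 CPM in C and 29.5, 26.4 and 23.9 CPM in US. This fall was small beside the others, at -0.58 on the log2 scale (standard error 0.12), and was lost without C replicate 2 or US replicate 3. The other named beta-amylase (Solyc08g077530.3.1) had 50.8, 30.05 and 31.4 CPM in C and 94.2, 60.6 and 68.98 CPM in US, higher in every US library, with a log2 fold change of 0.99 and a DESeq2 adjusted p of 0.0509.

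Most of the named proteinase inhibitors had higher levels in US, but none was called. Of 11 named proteinase inhibitors, which are made in wounded tomato leaves against feeding insects, 10 had a log2 fold change above 0 (median 1.81), 3 had an unadjusted edgeR p under 0.05 with more counts in US (all tested genes 2.36%) and 0 were called. Over all tested genes, 10412 of 22157 were above 0. The metallocarboxypeptidase inhibitor Solyc07g007250.4.1 had 214, 242 and 504 CPM in C and 1058, 1761 and 1135 CPM in US (DESeq2 adjusted p = 0.0558), and aspartic protease inhibitor 1 (Solyc03g098780.2.1) had 74.3, 96.5 and 180.4 CPM in C and 265, 723 and 448 CPM in US (DESeq2 adjusted p = 0.164). In these genes the US libraries lay above those of C. In the inhibitors of chromosome 9, C replicate 2 was high, as in Solyc09g083435.1.1 with 14.1, 73.6 and 33.97 CPM in C and 101, 74.3 and 222 CPM in US, and over the list it was the highest C library in 9 of the 11. Wound-induced protein 1 (Solyc06g048820.1.1) was up-regulated, with 56.97, 28.7 and 64.3 CPM in C and 89.7, 145 and 182 CPM in US (log2 fold change 1.48) and lost without C replicate 1 or 2 or US replicate 2 or 3. So was a Cf-like gene (Solyc01g005870.3.1), of the family of fungal resistance receptors, with 4.08, 3.63 and 7.297 CPM in C and 14.5, 8.41 and 13.6 CPM in US (lost without C replicate 1 or 2 or US replicate 1 or 3). The 4 genes named pathogenesis-related all had a log2 fold change below 0, with none called. The homeodomain gene Solyc07g008730.2.1 had 8.82, 10.6 and 6.87 CPM in C and 6.81, 5.77 and 5.62 CPM in US. In the others the C libraries differed widely, as in the 5-like protein Solyc08g080670.1.1 with 48.8, 7.16 and 1.17 CPM in C and 2.12, 1.603 and 0.198 CPM in US. Of 10 tested heat shock and chaperone genes, 1 was up-regulated (all genes 0.269%). This DnaJ co-chaperone (Solyc03g097240.3.1) had 11.7, 9.699 and 9.33 CPM in C and 23.4, 14.6 and 27.5 CPM in US (lost without C replicate 2 or 3 or US replicate 1 or 3). The median log2 fold change of the list was 0.16. Among 6 named peroxidases, 0 were called.

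**Figure D4:**
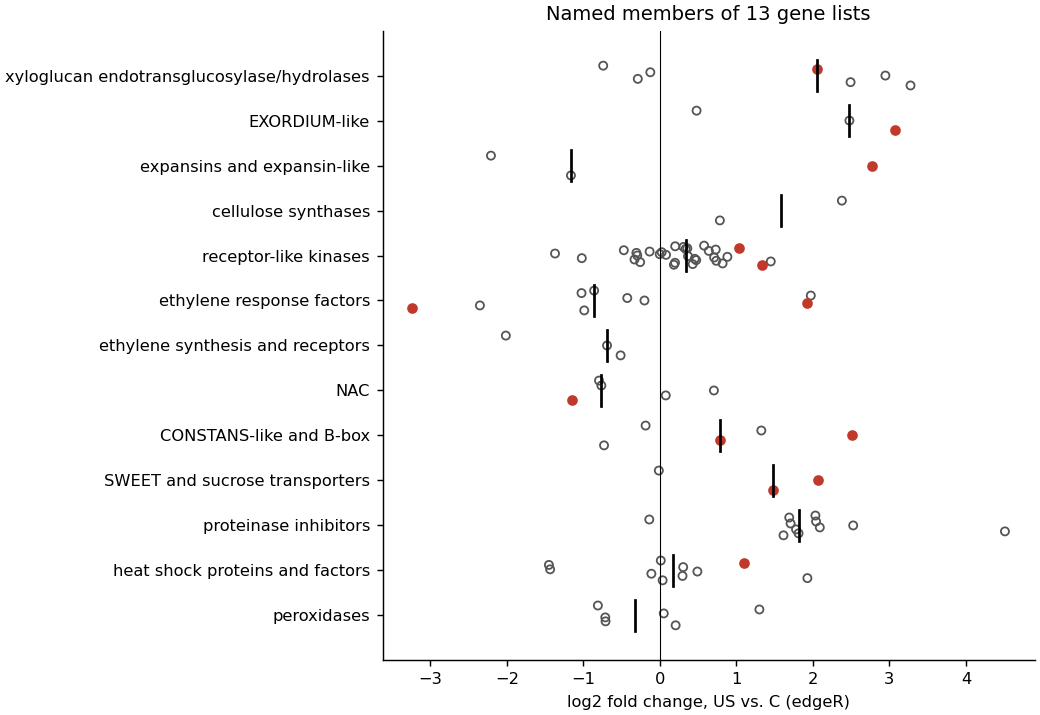
The edgeR log2 fold change of US against C (horizontal axis) of each tested, named member of 13 gene lists (rows). Filled red points are DESeq2 calls, open points were not called, and the vertical bar is the list's median. Most proteinase inhibitors lie to the right of 0 without a call, and the XTH genes fall into members near or below 0 and members beyond 2.

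Several up-regulated genes were of families with little known function. A DUF1005 gene (Solyc01g106690.3.1, chromosome 1, 86770339 to 86772178) had 40.4, 51.2 and 48.4 CPM in C and 212, 249 and 372 CPM in US, a 5.95-fold higher mean with a small spread in C. Its log2 fold change of 2.57 had a standard error of 0.39 and an edgeR adjusted p of 0.218, with a range from 1.0e-12 to 0.701. Another DUF1005 gene (Solyc12g008600.2.1) had 1.32, 2.02 and 0.958 CPM in C and 5.46, 18.9 and 27.9 CPM in US, and its log2 fold change of 3.60 (standard error 0.70) was among the 5 largest of the up-regulated genes. Both were kept in all 6 fits. The remaining DUF1005 genes with a name had 15.7, 26.5 and 9.13 CPM in C and 14.3, 23.3 and 34.4 CPM in US in Solyc01g081440.3.1 and 4.15, 21.1 and 1.44 CPM in C and 8.25, 10.5 and 53.8 CPM in US in Solyc04g077140.3.1, with overlapping libraries and no call. A DUF538 gene (Solyc06g007620.3.1) was up-regulated, with 21.5, 21.04 and 25.1 CPM in C and 65.3, 60.1 and 180.2 CPM in US (lost without US replicate 3). CASP-like protein Solyc10g076300.2.1, a membrane protein related to those that mark the Casparian strip, had 4.89, 3.51 and 4.09 CPM in C and 11.3, 12.2 and 17.99 CPM in US (log2 fold change 1.73, standard error 0.25) and was called in all 6 fits. So were an F-box gene of type PP2-A15 (Solyc08g080360.3.1), with 34.04, 24.3 and 26.9 CPM in C and 47.5, 78.7 and 86.01 CPM in US, and a subtilisin-like protease (Solyc01g087790.2.1), with 10.99, 6.95 and 8.99 CPM in C and 20.9, 22.6 and 19.6 CPM in US. Their log2 fold changes were 1.32 and 1.23. The gene annotated as plasminogen activator inhibitor (Solyc01g103200.4.1) had 20.2, 21.05 and 16.4 CPM in C and 36.9, 43.6 and 64.8 CPM in US (log2 fold change 1.33), a tetratricopeptide repeat gene (Solyc03g114320.4.1) had 34.6, 33.4 and 37.7 CPM in C and 78.8, 116 and 140.5 CPM in US (log2 fold change 1.67), and both were kept in all 6.

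Lipid genes were represented by a 3-ketoacyl-CoA synthase, which elongates the fatty acids of wax and membranes (Solyc11g072990.1.1), with 17.6, 13.4 and 9.12 CPM in C and 36.6, 44.9 and 37.4 CPM in US. Its log2 fold change was 1.57 (standard error 0.28), it was up-regulated in all 6 fits, and the other named members of its list were not called. Sterol 22-desaturase (Solyc02g070580.1.1), which makes stigmasterol, was up-regulated with 3.104, 4.53 and 7.07 CPM in C and 13.7, 8.82 and 17.8 CPM in US (lost without C replicate 1 or 2 or US replicate 1 or 3). Among 14 named cytochromes P450, 1 was up-regulated (all genes 0.269%). This gene (Solyc02g084570.4.1) had 42.8, 35.3 and 26.9 CPM in C and 75.2, 56.5 and 113 CPM in US (lost without C replicate 2 or US replicate 3). An aspartic proteinase of type PCS1 (Solyc05g051240.1.1), of which the Arabidopsis relative promotes cell survival, had 24.1, 36.7 and 40.1 CPM in C and 63.6, 105 and 199.99 CPM in US and was up-regulated by 1.87 on the log2 scale (lost without C replicate 1 or US replicate 3). ENHANCED DISEASE RESISTANCE 2-like (Solyc08g006590.2.1), named after a restrainer of defence in Arabidopsis, had 9.63, 10.3 and 11.7 CPM in C and 23.6, 35.3 and 68.2 CPM in US and was called in all 6 fits (log2 fold change 2.003).

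LOB domain-containing protein 38, named after a regulator of nitrogen responses in Arabidopsis (Solyc02g092550.3.1), was called as well, with 61.1, 50.9 and 31.1 CPM in C and 80.6, 91.996 and 126 CPM in US (log2 fold change 1.06, lost without C replicate 2 or US replicate 2 or 3). Transporters of the major facilitator superfamily were represented by Solyc04g079520.3.1, with 3.85, 6.11 and 4.19 CPM in C and 12.4, 9.71 and 18.5 CPM in US (log2 fold change 1.52, lost without US replicate 3). An HXXXD-type acyltransferase, of a family that decorates secondary metabolites (Solyc05g052670.1.1), had 20.6, 12.6 and 6.11 CPM in C and 4.02, 4.24 and 4.07 CPM in US (log2 fold change -1.67) and was kept in 1 of the 6 fits. A LURP-one-like gene (Solyc08g080750.4.1) had 28.1, 19.4 and 14.6 CPM in C and 46.9, 35.2 and 90.2 CPM in US (log2 fold change 1.47, lost without C replicate 2 or 3 or US replicate 3). An F-box gene with a phloem protein 2 domain (Solyc01g100000.3.1) had 1.25, 1.42 and 1.3000 CPM in C and 2.102, 5.99 and 5.45 CPM in US (log2 fold change 1.77) and was kept in 1 of the 6 fits. The remaining 10 up-regulated genes had log2 fold changes from 0.69 in the SNARE-associated Golgi gene Solyc08g079670.3.1 to 1.99 in the FAF-like gene Solyc11g071940.1.1, and each was kept in 3 or fewer of the 6 fits. They included a methyltransferase gene (Solyc03g111620.1.1), another transporter of the major facilitator superfamily (Solyc05g055540.3.1) and genes of the DUF247 and DUF3511 families (Solyc02g093020.3.1 and Solyc12g049210.1.1).

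Some of the steepest falls depended on how the C libraries differed among themselves. The F-box/kelch-repeat gene Solyc09g091615.1.1 had 313, 270 and 25 counts in C and 0 in each US library, so that its level in US was lower by at least 41.8-fold, with 3 counts allowed in each US library. Without C replicate 1 the bound was 18.1-fold, and by C replicate 3 alone 3.18-fold. It was also near 0 in D (3, 2 and 4 counts). The CLASSY 4-like gene, of a family that guides DNA methylation in Arabidopsis (Solyc01g058705.1.1), had 2757, 4631 and 21 counts in C and 0 in each US library, i.e., at least 452-fold fewer in CPM by the mean of C, at least 285-fold without C replicate 1, but at least 2.67-fold fewer by C replicate 3 alone. It had 0, 0 and 2 counts in D and 0, 669 and 3545 in US + D, so that presence and absence did not follow the treatments. The unknown protein Solyc12g006770.1.1 had 36.5, 43.6 and 0.465 CPM in C and 1.48, 0.236 and 1.36 CPM in US, the PLAT/LH2 gene Solyc03g096545.1.1 had 10.3, 9.96 and 0.0854 CPM in C and 0.594, 0.0471 and 0.0565 CPM in US, and the PDDEXK-like gene Solyc09g057760.4.1 had 10.1, 12.9 and 1.12 CPM in C and 0.868, 0.684 and 0.876 CPM in US. In these, C replicate 3 lay at or near the US libraries, and the calls were lost without C replicate 2, lost without C replicate 1 or 2 or US replicate 2 or 3, and lost without C replicate 1 or 2 or US replicate 1, 2 or 3, respectively. The call of the CLASSY 4-like gene was lost without C replicate 1 or 2 or US replicate 2 or 3. The same library was low in OBP3-responsive protein 1 (Solyc03g083420.4.1), with 618, 523 and 92.8 CPM in C and 97.9, 53.95 and 41.2 CPM in US (lost without C replicate 1 or 2 or US replicate 2 or 3). A hypothetical gene (Solyc06g049020.1.1) was down-regulated with C libraries of like level, with 96.4, 166 and 88.9 CPM in C and 11.7, 9.62 and 32.1 CPM in US (lost without C replicate 2). A further 10 genes had 0 counts in every US library and more than 3 in every C library, all at 1.17 CPM or less in C. Of these, 9 were not in the edgeR test and none had a DESeq2 adjusted p. They come from the 34075 genes of the count table, of which none showed the opposite. The counts in this rule are not scaled for depth. Because 2 C libraries (replicates 2 and 3) were far deeper than any US library, the rule favours this direction.

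A pair of down-regulated neighbours lay on chromosome 7, the RNA polymerase II elongation factor gene Solyc07g066040.1.1 (67434678 to 67435352) and the unknown protein Solyc07g066050.4.1 (67435569 to 67436102), 216 bases apart on the + strand. They had 17.7, 18.3 and 8.702 CPM in C and 6.72, 5.77 and 4.89 CPM in US and 14.99, 16.3 and 7.66 CPM in C and 5.53, 3.98 and 4.94 CPM in US, with log2 fold changes of -1.36 and -1.43. The former was lost without C replicate 1 or 2 or US replicate 2 or 3, and the latter was called in all 6 fits. The latter overlaps a gene on the other strand, as do 2 other called genes, so that its counts are uncertain. The values of the pair moved together over the libraries, with C replicate 3 the lowest of C in both.

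The libraries of D and US + D offered a second look at ultrasound, because US + D against D adds the same stimulus to plants under PEG and shares no library with US against C. Of the 77 calls, 64 had the same sign there (83.1%, exact 95% binomial interval 72.9 to 90.7%, treating genes as independent, which they are not), beside 50.4% of all tested genes, of which 52.9% had a value above 0. Among the up-regulated genes, 33 of 57 had an unadjusted edgeR p under 0.05 with more counts in US + D than in D, beside 6.71% of all tested genes. Of the down-regulated genes, 13 of 20 had such a p with fewer counts, beside 5.89%. The US + D and D libraries did not overlap, in the direction of the call, in 34 up- and 14 down-regulated genes, beside 11.2% and 11.7%. DESeq2 called 35 of the 77 in the same direction and 4 in the opposite direction, and over all genes with an adjusted p its calls of US + D against D made up 1.52% upwards and 1.61% downwards. edgeR called 6 in the same and 1 in the opposite direction, and 0.122% of all tested genes. Of the 23 genes kept in all 6 leave-one-out fits, 22 had the same sign, 16 of them with an unadjusted edgeR p under 0.05, and 1 had such a p in the opposite direction. The median edgeR log2 fold change there was 0.77 for the up- and -1.21 for the down-regulated genes. For US against C the DESeq2 medians were 1.66 and -2.30. The TGA6-like gene did not repeat its fall, with 6.45, 3.85 and 10.4 CPM in D and 10.7, 3.19 and 6.19 CPM in US + D (log2 fold change -0.05). The 77 calls came from a fit of all 12 libraries, so the spread within D and US + D had a part in which genes were called. With the libraries of C and US only, DESeq2 gave 59 DEGs, which were not followed here.

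**Figure D5:**
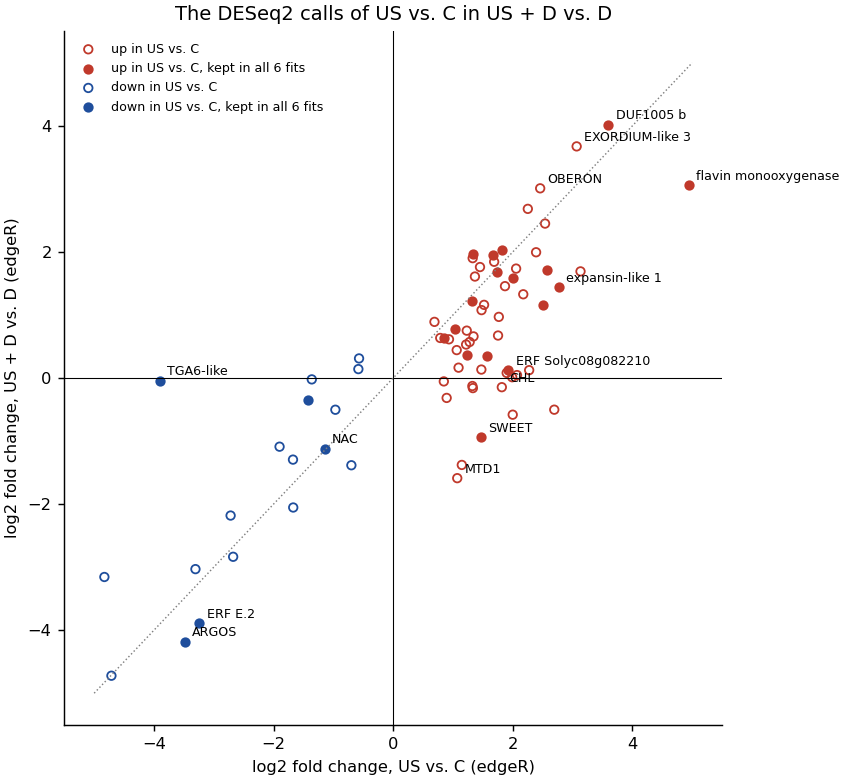
The edgeR log2 fold change of US + D against D (vertical axis) is plotted against that of US against C (horizontal axis) for the DESeq2 calls of US against C, except the 2 genes without a count in US. Filled points were kept in all 6 leave-one-out fits, and the dotted line marks equal change. Most points lie in the lower left and upper right, ERF E.2 and ARGOS near the line, and SWEET and MTD1 below 0.

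The levels of some genes that repeated their change are given here. ERF E.2 had 12.8, 10.6 and 8.96 CPM in D and 1.14, 0.292 and 0.738 CPM in US + D, with a log2 fold change of -3.89 (standard error 0.46). Its level in US was below all D libraries, and lower still in US + D. ARGOS had 4.28, 4.43 and 2.43 CPM in D and 0.434, 0.175 and 0.0352 CPM in US + D (log2 fold change -4.19, standard error 0.67), and EXORDIUM-like 3 had 3.61, 4.57 and 7.35 CPM in D and 67.4, 110.3 and 20.9 CPM in US + D (log2 fold change 3.67, standard error 0.82). The expansin-like gene had 45.4, 41.99 and 62.1 CPM in D and 194, 135 and 77.6 CPM in US + D, again without overlap, with a log2 fold change of 1.44. The CASP-like gene had 4, 3.62 and 3.83 CPM in D and 9.86, 16.02 and 11.05 CPM in US + D, the NAC gene 79.5, 70.8 and 83.9 CPM in D and 40.8, 29.7 and 37.3 CPM in US + D, and the OBERON gene 4.44, 5.27 and 3.85 CPM in D and 21.3, 60.7 and 27.2 CPM in US + D, and their log2 fold changes were 1.69, -1.12 and 3.01. TMK4 had 13.9, 12.1 and 14.7 CPM in D and 48.3, 68.5 and 35.2 CPM in US + D, and the AT-hook gene, of which the fall in US had been small, had 7.66, 7.32 and 7.35 CPM in D and 2.63, 2.84 and 3.08 CPM in US + D. In 30 of the 57 up- and 8 of the 20 down-regulated genes, every library with ultrasound lay on the same side of every library without it. Over all tested genes this was so for 0.515% above and 0.28% below.

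Some called genes differed from C in D as well, ERF E.2, ARGOS and the expansin-like gene among them. The D libraries of ERF E.2 and ARGOS lay below all their C libraries, and those of the expansin-like gene lay above all of its C libraries. In 18 of the 57 up-regulated genes the D libraries lay above the C libraries, and in 5 of the 20 down-regulated genes below them, beside 9.16% and 10.4% of all tested genes. In 5 up-regulated genes the D libraries lay below the C libraries. US and D were compared with the same C libraries, so these counts are not independent of the calls. The up-regulated ethylene response factor Solyc08g082210.4.1 had 7.72, 7.18 and 8.91 CPM in D and 9.92, 8.68 and 7.28 CPM in US + D, and the log2 fold change of US + D against D was 0.12 (standard error 0.25). CHL had 31.8, 28.9 and 42.5 CPM in D and 30.5, 36.9 and 25.8 CPM in US + D (US + D against D -0.15, standard error 0.37), and the gibberellin-regulated gene Solyc04g078195.1.1 had 324, 326 and 276 CPM in D and 301, 169 and 274 CPM in US + D. A RING zinc finger gene (Solyc01g079530.4.1), with 25.9, 10.2 and 9.64 CPM in C and 67.7, 57.2 and 57.5 CPM in US, had 48.9, 43.04 and 52.2 CPM in D and 53.98, 17.2 and 25.1 CPM in US + D, and its call in US was lost without C replicate 2 or US replicate 1, 2 or 3. In this ethylene response factor, CHL, the gibberellin-regulated gene and the RING gene, the US + D libraries did not all lie above all D libraries.

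In 4 of the called genes, ultrasound went one way without PEG and the opposite way with it, with no overlap in either comparison. Over all tested genes, 2221 of 22157 had US + D libraries apart from those of D against the sign of US against C, whether or not US and C overlapped. By this same rule the share among the calls was smaller (4 of 77). MTD1 (Solyc08g061490.3.1) was up-regulated in US, with 8.74, 5.37 and 7.88 CPM in C and 18.4, 15.2 and 12.6 CPM in US, and had 14.99, 17.8 and 15.3 CPM in D and 6.64, 4.59 and 4.77 CPM in US + D. The senescence regulator of the DUF584 family (Solyc02g080580.1.1) had 1.36, 0.888 and 1.196 CPM in C and 2.604, 2.19 and 2.82 CPM in US, and 4.39, 4.14 and 3.397 CPM in D and 1.71, 1.43 and 1.44 CPM in US + D. The SWEET gene Solyc06g072630.4.1 had 3.56, 4.92 and 3.52 CPM in D and 1.98, 1.696 and 2.55 CPM in US + D. The nuclear pore gene NUP62 (Solyc01g090670.3.1) was down-regulated in US, with 20.3, 25.1 and 23.3 CPM in C and 16.4, 16.5 and 13.4 CPM in US, and had 20.5, 15.7 and 18.7 CPM in D and 23.3, 22.8 and 21.96 CPM in US + D. MTD1, the DUF584 gene and the SWEET gene thus had higher levels in US and D than in US + D. The difference between the effects did not pass in edgeR (interaction adjusted p from 0.175 to 0.544) and passed in DESeq2 for each of the 4 (adjusted p from 2.9e-09 to 0.019). The 4 genes were picked for opposite effects in these same libraries. A large difference was thus built in, and these p values are not separate evidence of it.

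Cell type markers with a name were few. The 4 genes matched by name for dividing cells had a summed level between 77.9 and 88.6 CPM in C, against 87.8 to 147 in US. They were cyclinU4_1, a cyclin-E gene, a cyclin-dependent kinase inhibitor and cyclin-dependent kinase E-1, so the sum is not a measure of division. The upper value was that of US replicate 3, in which cyclinU4_1 (Solyc01g089850.4.1) had its highest level (9.205, 14.8 and 3.31 CPM in C and 7.195, 14.6 and 58.8 CPM in US). The 2 named phloem protein genes, of which 1 is among the calls, had a summed level between 1.51 and 2.196 CPM in C, against 2.44 to 7.03 in US, and the 1 flower gene was at 0.165 CPM or less. US replicate 3 was also the library in which most of the up-regulated genes were highest, and the part of the mix of cell types in these values was not tested.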

How the data were processed

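The authors trimmed the paired reads with fastp, aligned them with Hisat2 to the tomato genome SL4.0 and counted them per ITAG4.0 gene with FeatureCounts. The deposited values are raw counts of 34075 genes in 12 libraries, and the strand setting of the counting is not given in the sources used here. Genes with low counts were removed with filterByExpr, which left 22157. Counts were scaled by TMM, and the contrast of US against C was fitted in edgeR 4.0.16 (R 4.3.3) by the quasi-likelihood test on all 12 libraries with 1 mean per group. Adjusted p values are Benjamini-Hochberg over all tested genes, and for a DEG this p is under 0.05 with a log2 fold change beyond 0.58 in size. DESeq2 1.42.0 with its defaults and limma 3.58.1 (voom with quality weights) were alternatives. Unless DESeq2 is named, log2 fold changes are those of edgeR, and their standard errors are approximate, from the fold change and its F statistic. With 3 against 3 libraries an exact permutation test of a single gene cannot go below 0.1, so none was run. Replicates are separate samples in the labels, and where they are not separate plants, p values measure a spread that may be technical.

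The genes, gene lists and tests were chosen with earlier results of these data known. Genes named in the text are 4 genes picked from earlier results (EXORDIUM-like 3, ARGOS, CHL and ERF E.2), DESeq2 calls kept in all 6 fits that left out 1 library, the genes with the smallest edgeR p, the largest changes, called neighbours, called members of gene lists and genes at 0 in 1 group. The other named genes were chosen after their values were seen. Gene names came from the supplementary tables of the study, of which no values were used. The reference table at hand matched none of the gene identifiers, so that a planned search for promoter motifs was not run. The scripts were tested on simulated data. The alternatives tried were other scaling, filters and tools, the replicate block, the 6 libraries of C and US alone, and leaving out each library in turn.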

Additional observations from a re-analysis of the deposited data

Results flagged for a closer look

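In 4 genes the effect of ultrasound differed between plants without and with PEG, with the US libraries on one side of the C libraries and the US + D libraries on the opposite side of the D libraries. The difference between both log2 fold changes (US + D against D minus US against C, edgeR) was 0.881 in NUP62 (Solyc01g090670.3.1), -2.53 in the DUF584 senescence regulator (Solyc02g080580.1.1), -2.41 in the SWEET gene Solyc06g072630.4.1 and -2.66 in MTD1 (Solyc08g061490.3.1). The edgeR interaction did not pass, with adjusted p = 0.544, 0.227, 0.327 and 0.175, respectively. In DESeq2 the adjusted p values of the interaction were 0.0190, 3.4e-09, 1.0e-05 and 2.9e-09. The genes were picked for opposite effects in the same libraries, so these p values are not separate evidence of a difference. Over all genes the edgeR interaction had 1422 genes at an unadjusted p under 0.05 and 0 at an adjusted p under 0.05, and DESeq2 had 107 at an adjusted p under 0.05. NUP62 overlaps another gene, and its counts are uncertain.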

How the results depend on the processing

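The number of DEGs between US and C depended on the tool. It was 0 in edgeR, 1 in limma voom and 77 in DESeq2, and no omission of a single library gave an edgeR DEG. In DESeq2, leaving out US replicate 3 gave 34 DEGs, the lowest count, and leaving out C replicate 3 gave 238, the highest, while 47 were called without C replicate 2. The genes at an unadjusted edgeR p under 0.05 numbered 850, 501 in a fit of the C and US libraries only, and between 622 and 1856 with 1 library left out, the lowest when US replicate 3 and the highest when C replicate 3 was omitted. Samples were not paired by replicate number in the main fits. The deviations of US and C libraries of the same number from their group means had correlations of 0.237, -0.401 and -0.143. With 3 libraries per group these deviations are tied to each other, so the correlations cannot decide whether the numbers pair the samples. With the replicate block, edgeR gave 0 DEGs and DESeq2 163. Of the calls kept in all 6 leave-one-out fits, 95.65% had the same sign in US + D against D, beside 83.1% of all calls.

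A few genes with small or unstable changes reversed their sign. With 1 library left out, the log2 fold change of Solyc01g008510.3.1 lay between -0.623 and 0.104, that of the aquaporin gene Solyc03g019820.3.1 between -2.11 (US replicate 1 omitted) and 2.67 (US replicate 3 omitted), and that of the glutamate receptor Solyc06g063170.3.1 between -0.025 and 0.134. The jasmonate ZIM domain gene Solyc08g036620.4.1 lay between -4.07 (US replicate 3 omitted) and 8.27 (C replicate 3 omitted), the pectinesterase Solyc11g070175.1.1 between -0.121 and 0.152, and auxin response factor 6 (Solyc12g006340.3.1) between -0.164 and 0.123. In limma voom, Solyc03g019820.3.1 had -0.166. These genes are not DEGs in any tool at the main settings. The median of the peroxidases turned from -0.33 to 1.04 without C replicate 3, and that of the 3-ketoacyl-CoA synthases from 0.08 to 1.57 without C replicate 2 and -1.15 without US replicate 3. The causes were not tested. Library depth limits the genes at low counts, where 3 counts amount to up to 0.0847 CPM.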
